A study of Mus musculus with 11 samples.

Results

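The genes described here are 9 components of the Hedgehog signalling pathway: the ligand gene Shh, the receptor genes Ptch1 and Smo, the decoy receptor gene Hhip, the co-receptor genes Gas1 and Boc, and the transcription factor genes Gli1, Gli2 and Gli3. They were picked by mouse symbol from the Entrez gene rows of the count files, 9 of 27179 rows. All 9 passed the filter on low counts that left 14542 genes for testing. Each of the 9 held between 92 and 3758 reads in every library.

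In the vertebrate embryo, Sonic hedgehog is secreted from the notochord, the floor plate and the ventral midline of the forebrain, and patterns the neural tube from ventral to dorsal. Patched 1 holds Smoothened inactive until the ligand binds. Smoothened then acts through the primary cilium to keep Gli2 and Gli3 from being cut into repressors. Gli1, Ptch1 and Hhip are themselves turned on by the pathway and serve as readouts of it, whereas Gas1, Boc and Gli3 are known to be turned down where signalling is strong. Excess Hedgehog signalling in the mouse is known to disturb closure of the neural tube.

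The material was the brain as far back as just behind the otic vesicle, taken from 11 C57BL/6 embryos at embryonic day 9.5, with 1 polyadenylated RNA library per embryo. The 4 affected females were labelled p53-/- Bim+/- and the 4 control males carried the same label, while the 3 control females were labelled p53+/+ Bim+/-. By these labels every embryo had lost 1 allele of the pro-apoptotic gene Bim. What the affected females were affected by, and the litters the embryos came from, are not stated in the labels. Going by the labels, affected females differ from control males in sex and in being affected, from control females in p53 genotype and in being affected, and no group holds affected males or unaffected p53-/- females. Library totals lay between 8211942 and 11218682 reads. The labels were checked on the targeted genes, on the p53 target Ccng1 and on Xist. Bcl2l11, the Bim gene, was at 38.2 to 47.3 CPM in affected females, at most 47.7 in control males and 71.0 to 82.1 in control females. Its log2 level against control females was thus -0.81 in affected females (adjusted p = 0.000851) and -0.93 in control males (adjusted p = 0.000217), a difference that the shared Bim+/- label does not give. A difference in Bim genotype and one in Bim expression between p53 genotypes cannot be told apart here, and every comparison with control females carries it. Trp53, the p53 gene, was at 107 to 139 CPM in affected females, 112 to 132 in control males and 105 to 125 in control females, so its count did not separate the genotypes. Ccng1 was at 21.8 to 24.5 CPM in affected females, 27.5 to 33.5 in control males and 74.7 to 93.8 in control females. Xist was at 1435 to 2167 CPM in affected females, 8.72 to 13.2 in control males and 4391 to 5959 in control females, so it separated the sexes, with less in affected than in control females. The summed level of 7 neural progenitor markers was 711 to 852, 667 to 844 and 647 to 833 CPM in the same groups. Control male 4 and control female 1 stood apart from their groups for several genes below. Without both of them 7 components were called against control females and 6 against control males, beside 6 and 4 with all 11 libraries. Calls over all 14542 genes against control males also rose, from 2940 to 6014. Against control females the count over all genes stayed within 1.5 times of the 4073 with all 11 libraries. Control male 4 was the control nearest to affected females for Gli1 and Gli3, so leaving it out enlarges their differences from control males. Levels are CPM, a gene's counts scaled to the depth of its library and by TMM, and SDs are over the embryos of a group. Each fold change has its SE and its p-value from the quasi-likelihood test of edgeR, adjusted by Benjamini-Hochberg over 14542 genes, and a gene is called at an adjusted p under 0.05. The test sets each group difference against the spread between embryos within groups. Whether that spread holds differences between litters cannot be told, since the litters are not stated.

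Affected females had less Gli1 and more Gli3 than either control group. Gli1 stood at 26.7 ± 2.76 CPM in affected females, 48.6 ± 9.97 in control males and 49.6 ± 3.34 in control females. Gli3 stood at 321 ± 37.3, 213 ± 36.8 and 205 ± 3.45 CPM in the same groups. Gli2 was also called higher and Boc lower against both control groups, and Smo was called higher and Hhip lower against control females. Ptch1, Shh and Gas1 were not called in any comparison. In bulk tissue, fewer cells that express a gene and less of its RNA per cell cannot be told apart, for these genes and all others given here.

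Against control females, 6 of the 9 components were called, 3 higher and 3 lower, where 28.0% of all tested genes were called, 13.0% higher and 15.0% lower. The median log2 fold change was 0.12 over the 9 components and -0.0049 over all tested genes. The ranges of both groups did not overlap for 7 components, 3 higher and 4 lower, which was so for 40.2% of all tested genes, 20.2% higher and 20.0% lower. Without control female 2 only 3 components were called, namely Gli1, Gli2 and Gli3, and the count over all genes fell from 4073 to 1924. Against control males, 4 of 9 were called, 2 higher and 2 lower, beside 20.2% of all tested genes, 9.51% higher and 10.7% lower, with medians of 0.0037 over the components and -0.02 over all genes. Ranges did not overlap for 3 components, 1 higher and 2 lower, and for 19.5% of all tested genes, 10.1% higher and 9.43% lower. The count fell to 2 of 9, Gli1 and Gli3, when affected female 2, affected female 3, control male 1, control male 2 or control male 3 was left out, and was 6 without control male 4. Over all genes, the 2940 calls became 361 without affected female 3, and 658, 1132 and 1470 without control males 1, 2 and 3. They became 5140 without control male 4, and stayed within 1.5 times of 2940 without affected female 2. The 2 comparisons share the affected females and are not independent of each other.

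**Figure D1:**
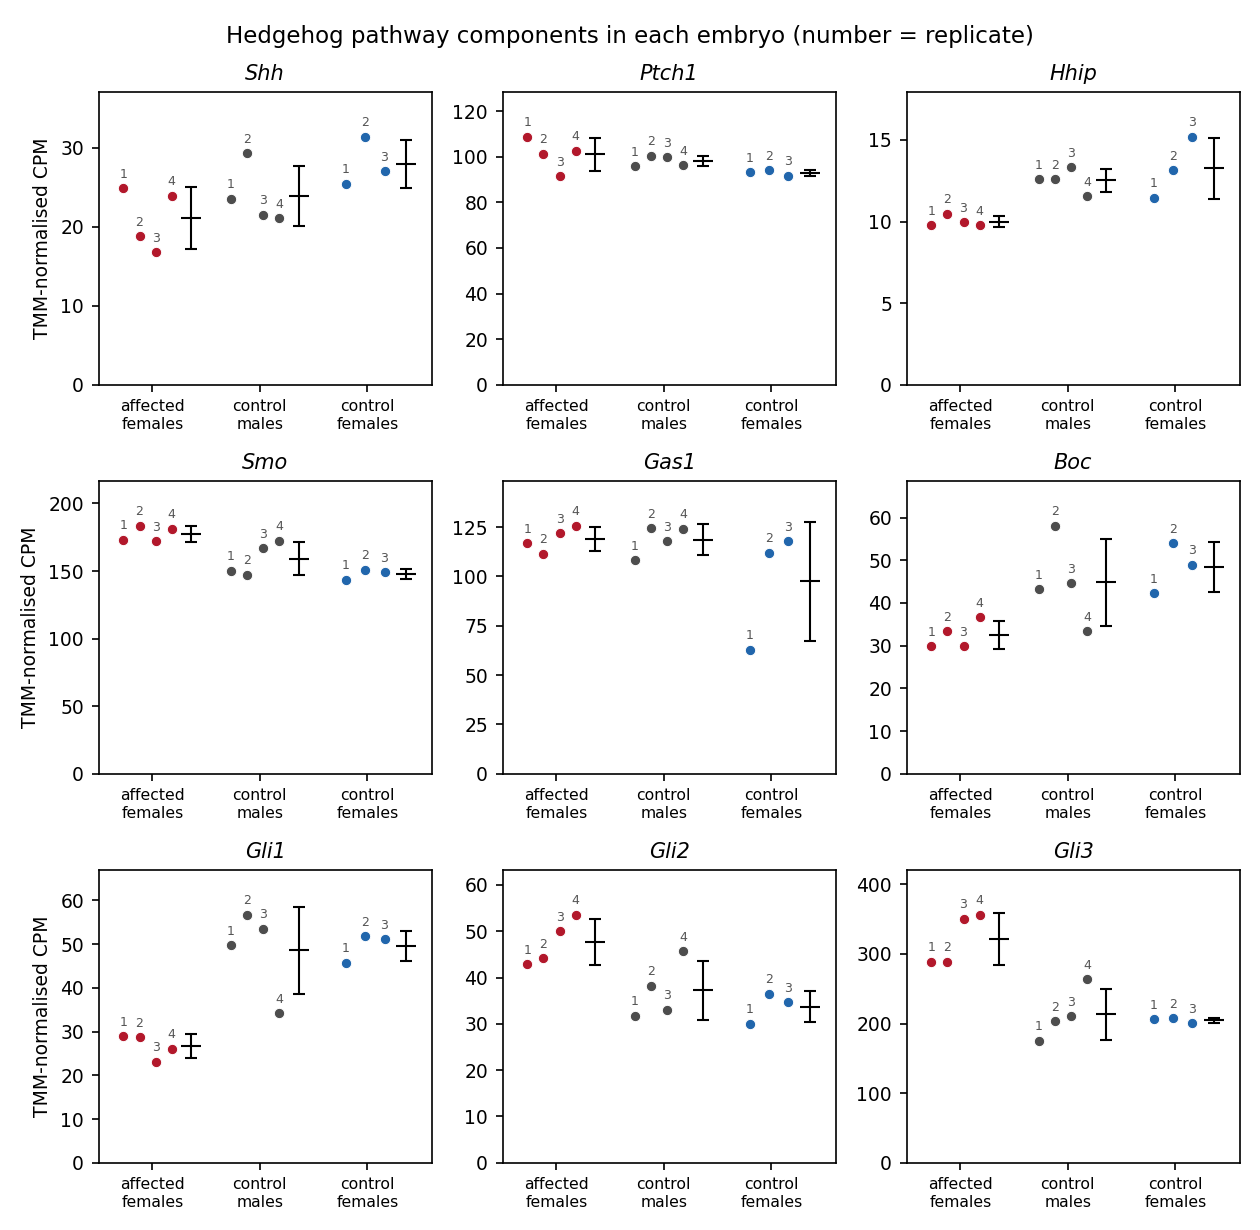
Each panel plots 1 component, with TMM-normalised CPM on the vertical axis from 0 and the 3 groups side by side (4 affected females, 4 control males, 3 control females). Points are embryos labelled by replicate number, and the bar beside them is the mean with its SD. For Gli1 the 4 affected females lie between 23.1 and 29.0 CPM, below all 7 controls, and for Gli3 they lie between 289 and 356 CPM, above all 7.

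**Figure D2:**
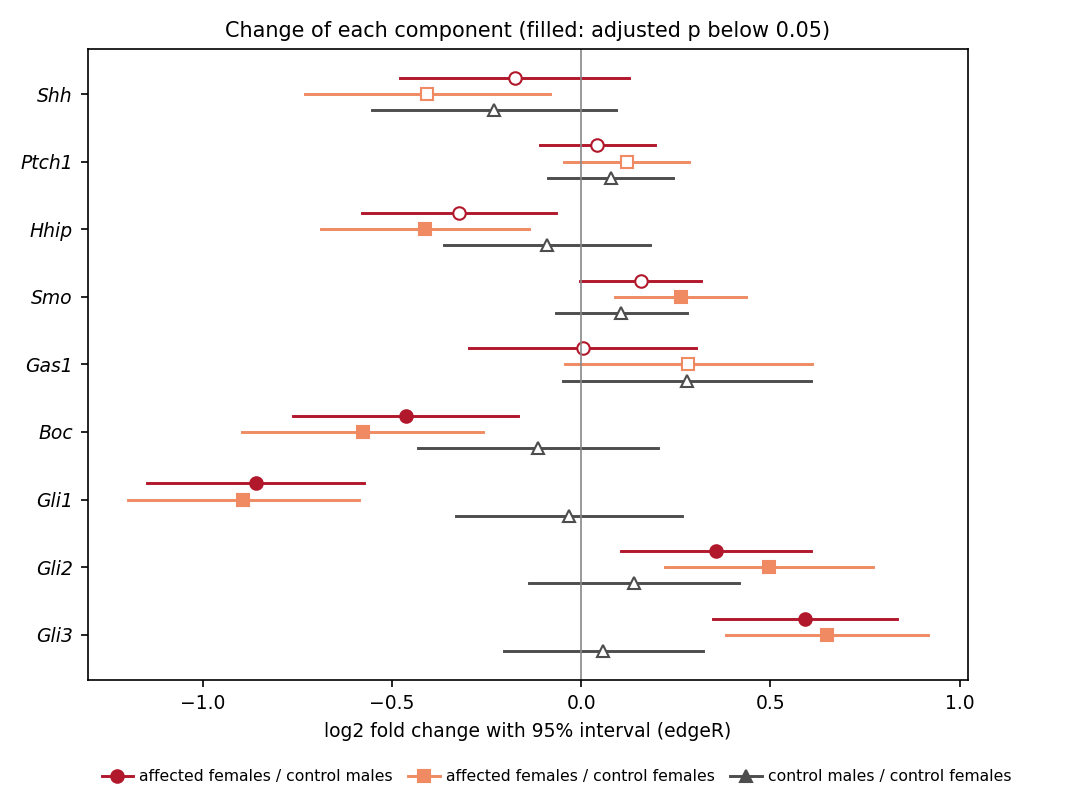
Points give the log2 fold change of each component for affected females over control males, affected females over control females and control males over control females, with horizontal bars for the 95% interval of edgeR's fit. Filled points have an adjusted p below 0.05. Gli1 lies at -0.86 and -0.89 in the comparisons of affected females, Gli3 at 0.59 and 0.65, and no point for control males over control females is filled.

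Within each group the components were ranked by CPM per kilobase of counted length (RPKM). Smo was the most abundant in every group, with 44.6 ± 1.45 RPKM in affected females, 40.0 ± 3.10 RPKM in control males and 37.2 ± 0.971 RPKM in control females. Hhip was the least abundant, with 1.10 ± 0.0365, 1.38 ± 0.0806 and 1.46 ± 0.206 RPKM in the same order of groups, and its range did not reach that of the next component in any group. In affected females Gli3 came second at 38.1 RPKM with Gas1 at 38.01 RPKM in an overlapping range, whereas in control males Gas1 at 37.9 RPKM lay above the whole range of Gli3, which averaged 25.3 RPKM. In control females Gas1 averaged 31.2 RPKM and Gli3 24.3 RPKM, with overlapping ranges. Gli1 averaged 7.30 RPKM in affected females, 13.3 RPKM in control males and 13.5 RPKM in control females. In affected females it stood below Shh (7.91 RPKM) and Boc (7.33 RPKM) and above Gli2 (7.10 RPKM), and the ranges of all 4 overlapped. In control females its range lay above those of Boc (10.9 RPKM), Shh (10.5 RPKM) and Gli2 (5.03 RPKM), and in control males it averaged more than Boc (10.1 RPKM), Shh (8.94 RPKM) and Gli2 (5.55 RPKM) while overlapping Boc and Shh. Ptch1 stood next below Gas1 in affected females and next below Gli3 in both control groups, at 23.5 RPKM in affected females, 22.8 RPKM in control males and 21.6 RPKM in control females.

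Shh, the only ligand gene of the family present at more than a trace, had 24.8, 18.8, 16.8 and 23.9 CPM in affected females (replicates 1 to 4), 23.5, 29.3, 21.5 and 21.1 in control males and 25.4, 31.4 and 26.98 in control females (replicates 1 to 3). All 4 affected females lay below all 3 control females, although affected female 1 and control female 1 differed by little, and the range of control males overlapped both. Relative to control females the log2 fold change in affected females was -0.41 (SE 0.15, adjusted p = 0.0569), which did not pass the threshold. It did pass under DESeq2 (adjusted p = 0.0496), limma voom with sample weights (0.00189) and the fit of 2 groups only (0.0423), and in edgeR without affected female 1 (adjusted p = 0.0403), control male 2 (0.0328), control male 4 (0.0457) or control female 1 (0.046), with adjusted p between 0.00189 and 0.214 over all 21 alternatives. Relative to control males it was -0.18 (SE 0.14, adjusted p = 0.381), with a 95% interval of -0.48 to 0.13. Shh lies on chromosome 5 at 28456840 to 28467101 (GRCm38), minus strand. The other ligand genes, Ihh and Dhh, reached at most 0.414 and 0.698 CPM in any library, and Ihh was at 0 in all 3 control females, so neither passed the filter.

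Ptch1, which encodes the ligand-binding receptor that restrains Smoothened, lies on chromosome 13 at 63508328 to 63573460, minus strand. It had 109, 101, 91.4 and 103 CPM in affected females, 95.9, 100.5, 99.7 and 96.3 in control males and 93.2, 94.0 and 91.6 in control females. Affected female 3 lay below every other library, while the other affected females lay above all controls. The log2 fold change in affected females was 0.04 against control males (SE 0.07, adjusted p = 0.695, 95% interval -0.11 to 0.19) and 0.12 against control females (SE 0.08, adjusted p = 0.249, 95% interval -0.04 to 0.29). These intervals lie wholly above those of Gli1, -1.15 to -0.57 against control males and -1.20 to -0.59 against control females, and both genes are pathway targets. With library totals in place of TMM scaling, the small difference of Ptch1 from control males had the opposite sign.

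Hhip, a membrane protein that binds and sequesters the ligand and whose gene is another pathway target, was at 9.77, 10.5, 9.97 and 9.78 CPM in affected females, 12.6, 12.6, 13.3 and 11.5 in control males and 11.5, 13.1 and 15.2 in control females. Every affected female lay below every control. Against control females it fell (log2 fold change -0.41, SE 0.13, adjusted p = 0.0291), and stood at -0.32 against control males (SE 0.12, adjusted p = 0.0665). The first call was lost without affected female 1, 3 or 4 or control female 2 or 3 (adjusted p = 0.0571 to 0.165, and 0.00164 to 0.165 over all alternatives), and with no filter on low counts (0.0543). The second comparison passed the threshold without control male 4 (adjusted p = 0.0388) or control female 1 (adjusted p = 0.0461), with library totals (0.044), with limma voom (0.00477) and with a gene length trend removed (0.0395), within 0.00477 to 0.151 over all alternatives. Hhip lies on chromosome 8 at 79965850 to 80058060, minus strand, and had the fewest reads of the 9 components, at most 164 in a library.

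Smo, whose product carries the signal across the membrane, lies on chromosome 6 at 29735497 to 29761366, plus strand. It had 173, 184, 172 and 181 CPM in affected females, 150.3, 147, 167 and 172 in control males and 144, 151 and 149 in control females. The affected females lay above all control females and overlapped the control males at control male 4. Smo rose against control females by 0.26 in log2 units (SE 0.08, adjusted p = 0.0278), and its fold change against control males was 0.16 in the same units (SE 0.07, adjusted p = 0.139). The rise against control females lost its call without affected female 2, 3 or 4 or any single control female (adjusted p = 0.056 to 0.0827, and 0.00365 to 0.0827 over all alternatives). Against control males it passed the threshold without control male 4 (adjusted p = 0.0492, with 0.035 to 0.304 over all alternatives).

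Gas1 and Boc encode co-receptors that present the ligand to Patched 1. Boc (chromosome 16, 44485045 to 44558870, minus strand) had 29.9, 33.4, 29.8 and 36.7 CPM in affected females, 43.3, 58.1, 44.6 and 33.4 in control males and 42.2, 54.0 and 48.9 in control females. The affected females lay below all control females and below 3 of 4 control males, control male 4 being within their range. The log2 level of Boc in affected females fell by 0.58 against control females (SE 0.15, adjusted p = 0.0136) and by 0.46 against control males (SE 0.14, adjusted p = 0.0328). The call against control females was lost without control female 2 (adjusted p = 0.0668, with 5.32e-05 to 0.0668 over all alternatives). Against control males it was lost without affected female 1, 2 or 3 or control male 1, 2 or 3 (adjusted p = 0.0529 to 0.101, with 0.000775 to 0.101 over all alternatives).

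Gas1 (chromosome 13, 60174405 to 60177535, minus strand) had 117, 111, 122 and 126 CPM in affected females, 108, 125, 118 and 124 in control males and 62.8, 112 and 118 in control females. Control female 1 stood far below the other 10 libraries, and the ranges of the groups overlapped otherwise. The log2 fold change against control females was 0.28 (SE 0.15, adjusted p = 0.171), and 0.05 without control female 1. Against control males it was 0.0037 (SE 0.14, adjusted p = 0.988), with a 95% interval of -0.30 to 0.30. The sign changed with library totals, with a stricter filter on low counts and in the fit of 2 groups only. It also changed without affected female 3 or 4 or control male 1 or 3.

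Gli1 is a transcriptional activator that is itself a target of the pathway. It lies on chromosome 10 at 127329882 to 127341579, minus strand. It had 29.0, 28.8, 23.1 and 26.1 CPM in affected females, 49.7, 56.8, 53.6 and 34.3 in control males and 45.7, 51.8 and 51.2 in control females. All 4 affected females lay below all 7 controls, and control male 4 lay nearest to them. The fall was 0.86 on the log2 scale against control males (SE 0.13, 0.551-fold with a 95% interval of 0.452 to 0.671, adjusted p = 0.005) and 0.89 against control females (SE 0.14, 0.538-fold with an interval of 0.436 to 0.666, adjusted p = 0.00248).

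Gli2 supplies most of the activator and Gli3 most of the repressor form in the neural tube. Gli3 (chromosome 13, 15463723 to 15730026, plus strand) had 289, 289, 350.3 and 356 CPM in affected females, 175, 204, 211 and 263 in control males and 206, 207 and 201 in control females. The affected females lay above all 7 controls, with replicates 3 and 4 higher than replicates 1 and 2. Again control male 4 was the control nearest to them. Gli3 rose on the log2 scale by 0.59 against control males (SE 0.11, adjusted p = 0.00956) and by 0.65 against control females (SE 0.13, adjusted p = 0.0041), or 1.51-fold and 1.57-fold.

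Gli2 (chromosome 1, 118834061 to 119054405, minus strand) had 42.9, 44.2, 49.96 and 53.6 CPM in affected females, 31.8, 38.3, 33.0 and 45.7 in control males and 30.0, 36.5 and 34.7 in control females. The affected females lay above all control females and above every control male but replicate 4. Gli2 rose by 0.36 against control males (SE 0.12, adjusted p = 0.0446) and by 0.50 against control females (SE 0.13, adjusted p = 0.0139). The call against control males was lost without affected female 2, 3 or 4, control male 1, 2 or 3, or control female 2 or 3 (adjusted p = 0.0526 to 0.142, with 0.00032 to 0.142 over all alternatives). It was also lost with library totals in place of TMM (0.0786), in the fit of 2 groups only (0.0516) and with a gene length trend removed (0.0567). The calls of Gli1 and Gli3 in both comparisons, and of Gli2 against control females, were kept in all 21 alternatives, with adjusted p of at most 0.0317 for Gli1 and 0.0467 for Gli3.

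Gli1 lay lower and Gli3 higher in every affected female than in every control. The ratio of Gli1 to Gli3 in affected females therefore could not overlap that of any control. Per kilobase, Gli1 amounted to 23.1%, 22.9%, 15.2% and 16.8% of Gli3 in affected females, 65.4%, 64.2%, 58.5% and 29.9% in control males and 51.1%, 57.5% and 58.6% in control females. Control male 4 lay between the affected females and the other 6 controls. Gli2 amounted to 17.9% to 19.2% of Gli3 in affected females, 19.7% to 23.6% in control males and 18.3% to 22.1% in control females, a much narrower spread. The ratios are given as a description, with no test.

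**Figure D3:**
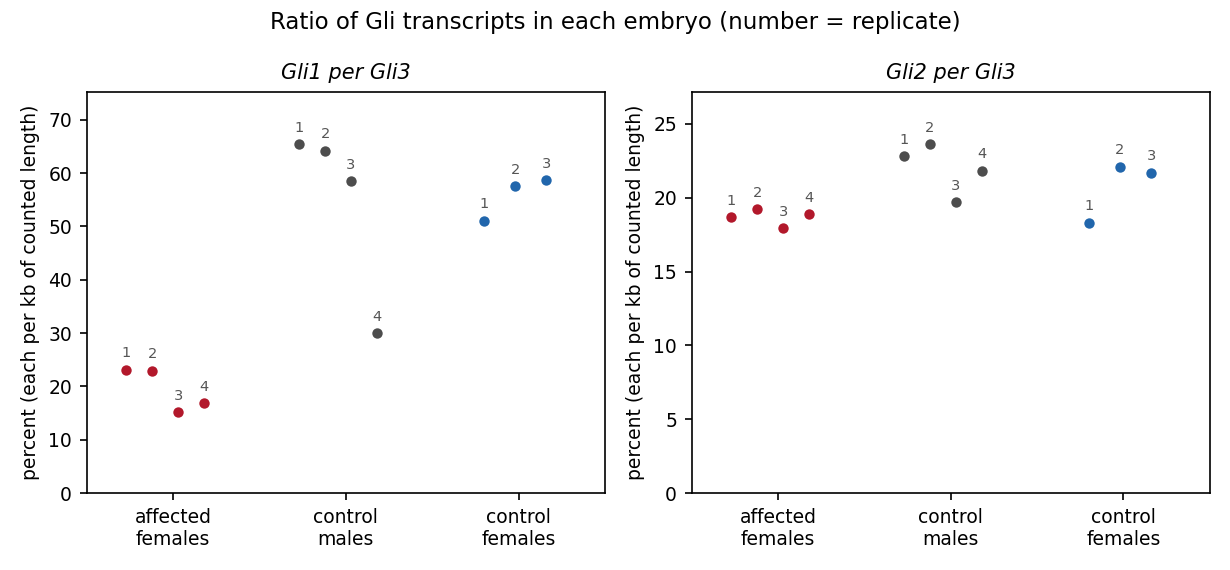
The left panel plots Gli1 and the right panel Gli2 as a percent of Gli3, each per kilobase of counted length, for every embryo of the 3 groups, with replicate numbers beside the points. Gli1 lies between 15.2% and 23.1% of Gli3 in affected females and between 29.9% and 65.4% in the controls, with control male 4 lowest among them.

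The promoters of Gli2 and Gli3 are shown because both genes were called higher in affected females against both control groups. Each window runs from 250 bases before to 50 bases after a transcription start in RefSeq (GRCm38.p6), on the strand of the gene. Capitals mark the GC box GGGCGG or its reverse complement, the letters bound by Sp-family factors. The Gli2 window is chr1:119053570-119053869 on the minus strand and the Gli3 window is chr13:15463473-15463772 on the plus strand.
Gli2: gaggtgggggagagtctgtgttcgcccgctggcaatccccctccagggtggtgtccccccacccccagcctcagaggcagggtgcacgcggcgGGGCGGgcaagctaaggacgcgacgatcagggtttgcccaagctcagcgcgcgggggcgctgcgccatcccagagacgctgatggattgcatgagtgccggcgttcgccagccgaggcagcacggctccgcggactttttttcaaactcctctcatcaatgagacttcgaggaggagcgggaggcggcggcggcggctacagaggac
Gli3: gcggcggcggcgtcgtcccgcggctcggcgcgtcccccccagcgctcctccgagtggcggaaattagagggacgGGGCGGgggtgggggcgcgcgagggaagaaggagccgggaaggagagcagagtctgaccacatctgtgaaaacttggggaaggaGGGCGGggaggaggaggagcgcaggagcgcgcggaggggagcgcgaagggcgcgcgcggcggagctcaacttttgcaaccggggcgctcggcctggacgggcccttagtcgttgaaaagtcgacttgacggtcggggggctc
Of the components, 6 had a window (Gas1, Gli2, Gli3, Hhip, Ptch1 and Smo). GGGCGG on either strand was in 5 of these 6 windows, 1 time in Gli2 and 2 times in Gli3, and in 35.7% of all 32851 promoter windows. The letters of a Gli binding site, TGGGTGGTC on either strand with at most 1 mismatch, were in none of the 6 windows and in 6.74% of all windows. Such letters are a description of these windows and say nothing about what binds there or elsewhere.

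Control males and control females differ by their labels in sex and in p53 genotype, and in the level of the Bim gene given above, and neither is labelled affected. None of the 9 components was called between them by edgeR, where 0.144% of all tested genes were called, 0.0481% higher and 0.0963% lower. None had an unadjusted p under 0.05, and DESeq2 called 0, while limma voom with sample weights called 1, Shh (log2 fold change -0.40, adjusted p = 0.035, with 0.035 to 0.999 over all alternatives). The same voom fit called 1569 of all 14542 genes between these groups, beside 21 by edgeR. Log2 fold changes lay between -0.23 for Shh and 0.28 for Gas1, and that of Gas1 was 0.05 without control female 1. The 95% intervals ran from -0.33 to 0.27 for Gli1 and from -0.20 to 0.32 for Gli3, each short of the estimates for affected females. Ranges did not overlap for 1 component, Ptch1, with 95.9 to 100.5 CPM in control males and 91.6 to 94.0 CPM in control females, beside 5.54% of all tested genes, 2.99% higher and 2.54% lower.

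Beyond the 9 components, 60 genes of ligand release, reception, cytoplasmic relay and the primary cilium were listed, of which 58 were tested. Against control females 13 of 58 were called, 5 higher and 8 lower, beside 28.0% of all tested genes, 13.0% higher and 15.0% lower. Against control males 15 of 58 were called, 10 higher and 5 lower, beside 20.2%, 9.51% higher and 10.7% lower. The counts in the lists below stand against the same shares over all genes. The medians over the 58 genes were 0.10 and 0.05, against -0.0049 and -0.02 over all tested genes. Against control females the 13 calls became 7 on leaving out affected female 3, 6 on leaving out control female 2 and 4 on leaving out control female 3. The 4073 calls over all genes became 1967, 1924 and 1663 in these fits, in the same order. Against control males the 15 calls became 9, 3 and 5 without affected females 1, 3 and 4, 5, 7, 6 and 27 without control males 1, 2, 3 and 4, and 9 without control female 2 or 3. The 2940 calls over all genes became 361 and 1174 without affected females 3 and 4, and 658, 1132, 1470 and 5140 without control males 1, 2, 3 and 4. They stayed within 1.5 times of 2940 without affected female 1 or control female 2 or 3. Between the control groups edgeR called 0 of 58, with 1 at an unadjusted p under 0.05, DESeq2 called 0, and limma voom with sample weights called 1, Mosmo. That voom fit called 1569 of all genes.

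Among the genes of ligand release, Scube1, of a family of secreted proteins that help free the ligand from cells, was the 1 gene that fell against both control groups. It averaged 96.6 ± 6.44 CPM in affected females, 146 ± 35.5 in control males and 149 ± 15.0 in control females, with log2 fold changes of -0.60 (SE 0.13, adjusted p = 0.0118) against males and -0.63 (SE 0.14, adjusted p = 0.00756) against females. The first of these calls was lost without affected female 3 (adjusted p = 0.0523, with 0.000272 to 0.0523 over all alternatives). The affected females lay below all 7 controls for Scube1. Over all alternatives its adjusted p was at most 0.0354 against control females. Scube2 rose against control males by 0.47 (SE 0.13, adjusted p = 0.0244), a call lost without affected female 3 or 4 or control male 1 or 3 (adjusted p = 0.0505 to 0.0895, with 0.00135 to 0.0895 over all alternatives).

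Of the 7 other receptor and binding-protein genes, 2 rose and 1 fell against control males, and 1 rose and 2 fell against control females. Gpc3, an X-linked gene whose product, glypican 3, competes with Patched for the ligand, averaged 425 ± 12.5 CPM in affected females, 294 ± 16.04 in control males and 281 ± 50.5 in control females. It rose against both (by 0.53 in log2 units against males, SE 0.10, adjusted p = 0.00872, and 0.60 against females, SE 0.11, adjusted p = 0.00332), and both calls were kept in all 21 alternatives. Xist, which silences the second X chromosome of females, was lower in affected than in control females, as given above, and the part of X-linked dosage in these values was not tested. Lrp2, a large endocytic receptor that takes up the ligand in the forebrain, rose against control males alone, by 0.54 (SE 0.16, adjusted p = 0.0294), a call lost without affected female 3 or 4 or control male 1 or 3 (adjusted p = 0.0699 to 0.0988, with 0.00018 to 0.0988 over all alternatives). Its level in control female 1, 152 CPM, was above all 4 affected females. Mosmo, whose product attenuates Smoothened, fell by 0.45 against control females (SE 0.12, adjusted p = 0.0151). Without control female 2 or 3 the call was lost (adjusted p = 0.0762 and 0.0719, with 6.13e-05 to 0.0762 over all alternatives).

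Of 21 other relay genes, 3 rose and 3 fell against control males, and 2 rose and 2 fell against control females. Sufu, which binds and restrains Gli proteins, averaged 33.0 ± 2.25 CPM in affected females, 24.9 ± 5.98 in control males and 23.3 ± 0.699 in control females. Control male 4, at 33.1 CPM, lay within the range of the affected females and the other controls below it. Sufu rose against control females by 0.51 (SE 0.15, adjusted p = 0.0215), a call lost without affected female 3 or 4 or control female 2 or 3 (adjusted p = 0.0574 to 0.0746, with 0.000823 to 0.0746 over all alternatives). Evc, a ciliary partner of Smoothened, fell by 0.54 (SE 0.14, adjusted p = 0.0198) and 0.58 (SE 0.15, adjusted p = 0.0132), and the kinase gene Ulk3 by 0.67 (SE 0.19, adjusted p = 0.0265) and 0.87 (SE 0.20, adjusted p = 0.00865), against control males and control females in turn. Evc lost its call without affected female 3 against control males (adjusted p = 0.0659, with 0.00108 to 0.0659 over all alternatives) and without control female 2 or 3 against control females (adjusted p = 0.0532 and 0.0552, with 4.12e-05 to 0.0552). Ulk3 lost its call against control males without affected female 3 or 4 or control male 1 or 2 (adjusted p = 0.0666 to 0.0925, with 0.000209 to 0.0925), and kept it against control females in all alternatives.

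Of 25 cilium genes, 4 rose and none fell against control males, while 2 rose and 3 fell against control females. The centriolar gene Ofd1, which is X-linked, rose in both comparisons, by 0.58 against control males (SE 0.12, adjusted p = 0.00995) and 0.43 against control females (SE 0.12, adjusted p = 0.0214), the second call being lost without affected female 3 or 4 or control female 1 or 3 (adjusted p = 0.0556 to 0.0647, with 0.00706 to 0.0647 over all alternatives). Dync2h1, a motor of transport within cilia, rose by 0.61 against control males (SE 0.12, adjusted p = 0.00885), although control female 1, at 106 CPM, was within the 93.4 to 118 CPM of the affected females. Mks1, of the ciliary transition zone, fell by 0.59 against control females (SE 0.14, adjusted p = 0.00905).

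**Figure D4:**
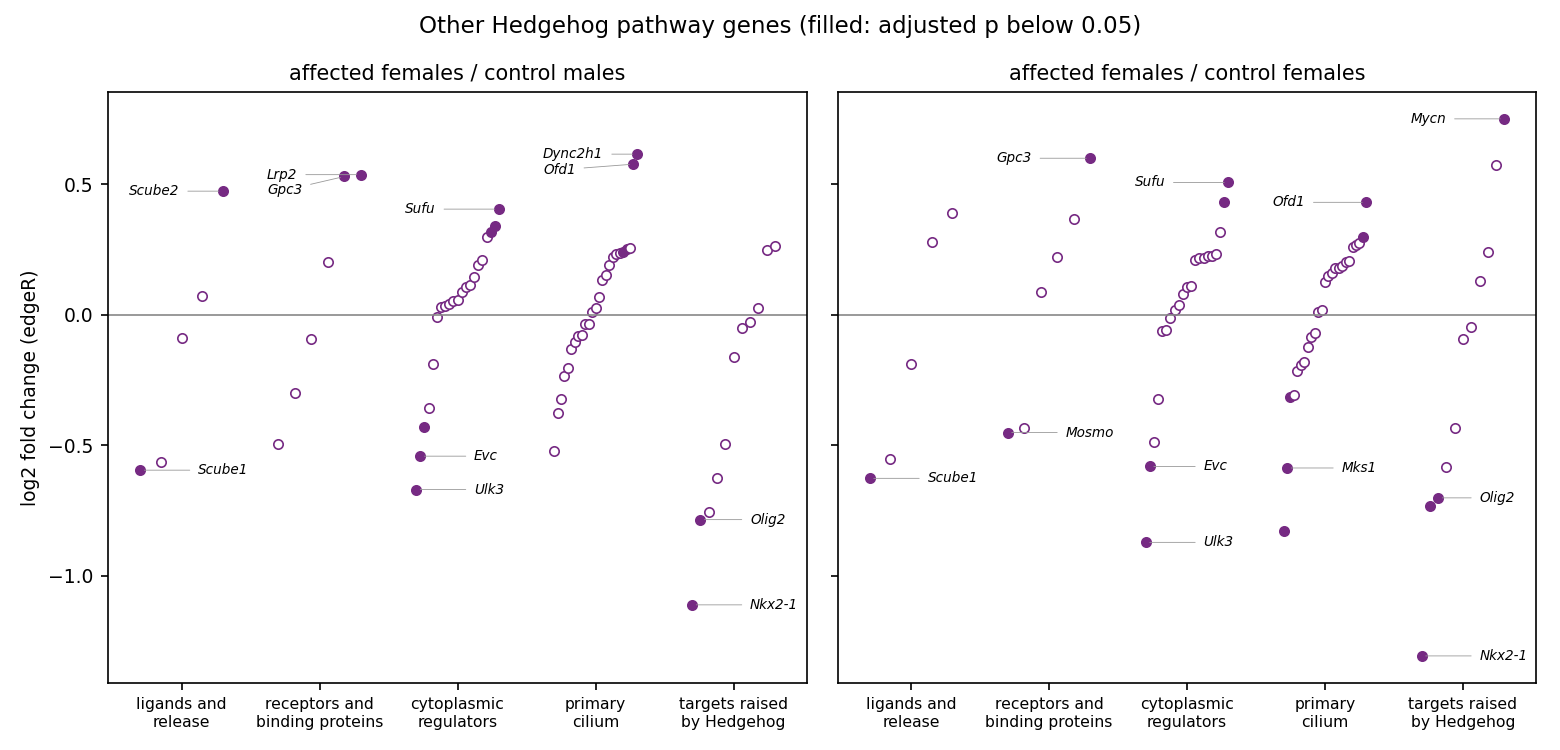
Each point is the log2 fold change of 1 gene other than the 9 components, in 5 lists from which 1 tested gene is not shown, for affected females over control males on the left and over control females on the right. Filled points have an adjusted p below 0.05, and those described in the text are named. Nkx2-1 is the lowest point in both panels, at -1.11 and -1.31.

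Genes that Hedgehog signalling turns on in the ventral neural tube, other than Gli1, Ptch1 and Hhip, were called lower for 2 of 11 and higher for none against control males, and lower for 3 and higher for 1 against control females. Nkx2-1, a factor of the ventral forebrain, was at 5.48, 5.55, 5.78 and 7.36 CPM in affected females, 13.3, 21.1, 9.96 and 8.18 in control males and 9.60, 17.5 and 17.5 in control females. All affected females lay below all controls, and Nkx2-1 fell by 1.11 on the log2 scale against control males (SE 0.27, adjusted p = 0.0158) and by 1.31 against control females (SE 0.29, adjusted p = 0.00656). Olig2, a factor of motor neuron progenitors, stood at 4.20 ± 1.12 CPM in affected females, 7.24 ± 0.578 in control males and 6.77 ± 1.98 in control females, with log2 fold changes of -0.78 against males (SE 0.21, adjusted p = 0.0234) and -0.70 against females (SE 0.23, adjusted p = 0.0366). Against control males, Nkx2-1 lost its call without affected female 3 or control male 1 (adjusted p = 0.0598 and 0.0509, with 0.00023 to 0.0598 over all alternatives). Olig2 lost its call there without affected female 3 or control male 1 or 2 (adjusted p = 0.0572 to 0.0844, with 0.00269 to 0.0844), and against control females without affected female 1, 2 or 3 or control female 2 or 3 (adjusted p = 0.0583 to 0.157, with 0.000551 to 0.157). Mycn rose against control females by 0.75 (SE 0.15, adjusted p = 0.00424), with 118 ± 8.29 CPM in affected females and 69.9 ± 19.0 CPM in control females, of which replicate 1 was lowest at 48.4 CPM. Mycn was not called against control males, whose 86.3 to 111 CPM overlapped the 110 to 129 CPM of affected females. Of 5 tested genes of the floor plate and notochord other than Shh, 1 was called in each comparison. This was Ntn1, the gene of the guidance cue netrin 1, with 51.2 to 64.4 CPM in affected females, 66.1 to 78.1 in control males and 67.7 to 82.3 in control females. It fell by 0.31 against males (SE 0.09, adjusted p = 0.033) and 0.34 against females (SE 0.10, adjusted p = 0.0239). Ntn1 lost its call against males without affected female 2, 3 or 4 or control male 1, 2 or 3 (adjusted p = 0.0519 to 0.121, with 0.00163 to 0.121), and against females without affected female 3 or control female 3 (adjusted p = 0.0772 and 0.126, with 0.00574 to 0.126). The floor plate gene Foxa2 had 6.59 ± 1.42 CPM in affected females, 7.35 ± 1.44 in control males and 6.02 ± 0.666 in control females, and the notochord marker Noto was at 0 in 7 of 11 libraries. T, of the same list, had 1.26 to 3.59 CPM in affected females, 0.818 to 1.38 in control males and 1.11 to 2.87 in control females. It was not called against control males (adjusted p = 0.0632) or control females (adjusted p = 0.431). Of the genes that signalling turns down, none of Cdon, Pax3 and Pax7 was called in either comparison.

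Marker levels of several other cell types were compared between the same groups, where 9.51% and 13.0% of all tested genes were called higher, and 10.7% and 15.0% lower, against control males and control females in turn. The summed level of 9 neuron markers was 90.2 to 119 CPM in affected females, 174 to 303 in control males and 119 to 290 in control females. Of these 9, 7 fell against control males and 9 against control females. The sum of 7 surface ectoderm markers was 228 to 260, 123 to 179 and 111 to 209 CPM in the same groups, with 6 and 7 called higher, and that of 5 neural crest markers was 236 to 281, 152 to 189 and 134 to 169 CPM, with 2 and 5 called higher. Against control females, Foxd3 lost its call in 9 of 20 alternatives (adjusted p at most 0.146) and Tfap2a in 4 of 21 (at most 0.137). Ets1 and Sox10 kept theirs there in all 21, and Sox10 lost its call against control males in 2 of 21. Head mesenchyme markers had 1 and 2 of 7 called higher, with sums of 264 to 330, 238 to 283 and 224 to 267 CPM over 8 markers, of which Tcf15 was at 0 in 1 control male. Pharyngeal endoderm markers had 1 of 4 called higher in each comparison, namely Cldn6, with sums of 64.7 to 77.5, 48.1 to 58.7 and 45.2 to 55.8 CPM over 5 markers, of which Nkx2-5 was at 0 in all 11 libraries. The call of Cldn6 against control males (adjusted p = 0.0446) was lost without any 1 affected female, control male 1, 2 or 3 or control female 2 (adjusted p = 0.0515 to 0.121, with 0.00528 to 0.121 over all alternatives). Of 5 endothelial markers, none was called against control males and 1 was lower against control females, with sums of 207 to 259, 184 to 242 and 223 to 229 CPM. None of 5 primitive erythroid markers was called, with sums of 1009 to 2099 CPM in affected females, 1946 to 3391 in control males, and 492, 4070 and 3882 in control females 1, 2 and 3. Control female 1 had the lowest neuron and erythroid sums and the highest surface ectoderm sum of the controls. No neuron, surface ectoderm or neural crest marker was at 0 in any library. The sums of the 7 neural progenitor markers overlapped between all 3 groups, as given above. Of these markers 2 were called higher against control females, Sox2 (adjusted p = 0.0207) and Sox3 (adjusted p = 0.0216), and none against control males. Over all alternatives the adjusted p was 0.0023 to 0.0771 for Sox2 and 0.00301 to 0.076 for Sox3. The part of these shifts in the changes of the Hedgehog components was not tested.

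For each component, the non-member genes with the most similar profile were taken by the root mean square difference of log2 CPM, centred on the mean of the 11 libraries, over 11023 genes that averaged at least 5 CPM over these libraries. For Gli1 these were Tagap1, Rps16 and Ccdc107, with differences of 0.1001, 0.105 and 0.106 on the log2 scale, beside 0.457 for the size of the Gli1 profile itself. Rps16 belongs to the ribosomal protein genes, which share reads with near-identical copies, so its count is uncertain. Tagap1 had 58.3, 55.2, 43.1 and 47.9 CPM in affected females, 101, 118, 91.3 and 60.1 in control males and 85.6, 107 and 109 in control females, with control male 4 nearest to the affected females as for Gli1. For Gli3 they were Ints9, Smc1a and Wdr7 (0.0620, 0.0634 and 0.0650, beside 0.335), and for Boc they were Adcy6, Tmem201 and Evc (0.0875, 0.0925 and 0.0974, beside 0.316). The likeness is a description of these 11 libraries, in which group differences are shared by many genes.

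Reads over exonic bases shared with another gene limit the values of 5 components, since no source used here gives the strand setting of the counting. In GENCODE vM21 the most bases shared with any 1 other gene were 446 for Shh, 265 for Gli1, 188 for Gli3, 175 for Hhip and 589 for Gas1. Ptch1, Smo, Gli2 and Boc shared none. Shh and Gli1 each shared bases with more than 1 gene, so their totals may be larger. Of the partners that have a row in the files, 9530036O11Rik beside Shh reached at most 0.399 CPM and Arhgap9 beside Gli1 at most 1.76 CPM.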

How the data were processed

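Polyadenylated RNA from 11 embryonic brains went into TruSeq libraries for Illumina sequencing, per the labels' protocols. Raw read counts, one row for each Entrez gene beside its length, were deposited by the authors, and the submitters' processing notes name featureCounts and mm10. Aligner, versions, strand setting and annotation release: not given in the sources used here. Symbols and positions came from the RefSeq gene table of GRCm38.p6, which has the coordinates of mm10; 25275 of 27179 identifiers matched, and all 145 listed symbols did.

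Counts were filtered with filterByExpr and scaled by TMM, and all 11 libraries entered 1 edgeR 4.0.16 quasi-likelihood fit (R 4.3.3) with group as the only factor. CPM is relative to the reads of the 14542 tested genes. The SE is the log2 fold change divided by the square root of F. The biological coefficient of variation was 11.9%. Replicates are separate embryos by their labels; whether they share litters or batches is not stated. Pairs of libraries within a group differed by more than sampling noise, with 2.76 to 32.3 for the chi-square over its degrees of freedom. Promoter windows are from RefSeq, and exon overlaps from GENCODE vM21.

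Components, lists and alternatives were chosen with earlier results of these data known. Named genes were all 9 components, up to 4 genes per list and comparison by adjusted p, and the 3 nearest profiles per component, of which a selection is given; Noto, Ihh and Dhh, which failed the filter, and the label checks were named after their values were seen. The values of 1 listed gene are not reported here, though list counts include it. The 21 alternatives were RLE scaling, library totals, 2 other filters, DESeq2 1.42.0, limma 3.58.1 voom with sample weights, a fit of 2 groups only, the replicate number as a block, removal of a gene length trend, and omission of each of the 11 libraries or of control female 1 with control male 4.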

Additional observations from a re-analysis of the deposited data

How the results depend on the processing

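Same-numbered embryos of different groups correlated in their deviations from group means by -0.136 to 0.178, over 0.1 in 3 of 10 pairs, so the numbers were not taken as pairing. With the replicate block, 4 components were called against control females (Smo and Hhip were not), 4 against control males and 0 between control groups. The counts over all genes with the block stayed within 1.5 times of the main 4073 against control females, 2940 against control males and 21 between control groups. Over fits that left out 1 library, the components called numbered 3 to 7, 2 to 6 and 0 to 0 for affected females over control females, affected females over control males and control males over control females. The wider pathway genes called numbered 4 to 18 and 3 to 27 in the first 2, and all genes called 1663 to 4957, 361 to 5140 and 18 to 35. With limma voom and sample weights, 33, 32 and 1 wider pathway genes, 1 component in the last comparison, and 7639, 6397 and 1569 of all genes were called. Among all genes, leaving out 1 library moved the count by over 1.5 times against control females without affected female 3 (1967) or 4 (2605) or control female 2 (1924) or 3 (1663). Against control males it did so without affected female 3 (361) or 4 (1174) or control male 1 (658), 2 (1132), 3 (1470) or 4 (5140), and between control groups without control male 2 (35). DESeq2 called 43 genes in the last. Without control female 1 and control male 4, 22 and 30 wider pathway genes were called, and 6014 of all genes against control males. Signs changed for values near 0. Against control males, Ptch1 in affected females stood at -0.0195 with library totals, and Gas1 at -0.0587 with library totals, -0.0116 with the stricter filter, -0.002 in the fit of 2 groups and -0.039 to 0.0341 leaving out 1 library. For control males over control females, Gli1 stood at 0.0089 with voom, 0.0379 with the replicate block, 0.0522 without both libraries and -0.12 to 0.10 leaving out 1. Gli2 stood at -0.0594 with voom and -0.0486 without both libraries. Gli3 stood at -0.0364 with the block, -0.053 without both and -0.059 to 0.14 leaving out 1. Hhip stood at 0.0157 with the length trend removed and -0.18 to 0.022 leaving out 1, and Boc at -0.27 to 0.0048. The cause of these shifts was not tested. Hhip had the fewest reads of the components, 92 to 164 in a library.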
